A study of Rattus norvegicus with 6 samples.

Results

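Genes for voltage-gated and related ion channels were examined in rat primary cortical cells that had been transfected with Math2 or with a control vector. Members were all probe sets with exactly 1 platform gene symbol that starts with Kcn, Cacna, Cacnb or Cacng, or with Hcn or Scn followed by a number. This gave 181 of 31099 probe sets and 114 of 14217 gene symbols: 126 probe sets of 75 potassium channel genes, 3 of 3 Hcn genes, 14 of 12 sodium channel genes and 38 of 24 calcium channel genes. Membership used names and no measured values, but the rule was chosen with earlier results of these data known.

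Math2, now called Neurod6, is a neuronal transcription factor of the basic helix-loop-helix (bHLH) family. The study was made to find genes that Math2 acts on. Cortical cells in serum-containing medium received 13.3 µg of the Math2 expression vector or of the control vector, and every dish, control dishes included, also received 2.7 µg of a vector for LNGFR, the low-affinity receptor of nerve growth factor, without its cytoplasmic part. LNGFR served as a surface tag, and tagged cells were selected 24 h later. Total RNA of 3 control and 3 Math2 samples, 50 ng each, was amplified over more than a single cycle and hybridized to Affymetrix Rat Genome 230 2.0 arrays. The labels give no rat strain, age or vector promoter. They do not say whether the samples came from separate cultures, so a p-value here reflects the spread among these 6 samples alone, and that spread may be technical.

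Voltage-gated channels open and close with the membrane potential. Most are selective for a single kind of ion, while Hcn channels pass both sodium and potassium. In neurons, sodium channels carry the rising phase of the action potential, potassium channels repolarize the membrane and set its resting level, and calcium channels couple activity to transmitter release and gene expression. Each family consists of pore-forming subunits, which make the channel, and auxiliary subunits, which change its gating or its transport to the surface.

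The arrays give a MAS5 signal per probe set, a linear intensity scaled by the authors to the same trimmed mean on every array. Median signals ran from 102 to 120. The probe set of the transfected gene, Neurod6, measured 386, 207 and 973 in controls 1, 2 and 3, against 312, 167 and 1546 in Math2 samples 1, 2 and 3, so it did not separate the groups. Since the sequence carried by the vector is not stated, the probe set could lie elsewhere in the transcript, and it then checks nothing about the labels. Among 12 neuron markers, 10 were tested and the summed signal ran from 15850 to 28290 on control arrays and from 16300 to 36590 on Math2 arrays. All 7 astrocyte markers were on the array (13910 to 17790 and 12000 to 22510), and of 5 microglia markers 0 passed the filter. The geometric mean of 18 hybridization spike-in signals was 1893 to 2566 on control and 3875 to 6773 on Math2 arrays. For transcript completeness, the ratio of the 3' to the 5' probe set of Gapdh ran from 3.74 to 13.8, with the highest value on control array 1. The part of these measures in the differences given here was not tested.

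Most channel probe sets were dim. A probe set was tested when its mean log2(signal + 7.42) over all 6 arrays was at or above the 40th percentile of all probe sets, and 52 of the 181 members passed (28.7%, against 60% of all probe sets). These represent 47 genes, and 67 genes had no tested probe set. Mean signals of the tested members ran from 65.7 to 1274, and 1 exceeded 500, the trimmed mean of an array. The 129 members that were not tested had mean signals of 4.57 to 72.7. Among the latter were all probe sets of Scn2a, Scn8a and Scn9a, sodium channel pores of central and peripheral neurons, and all those of Cacna1a, Cacna1d, Cacna1e and Cacna1g, calcium channel pores. The files hold no detection calls, so it is unknown which of these transcripts were above background. In RNA of pooled cells, fewer cells of a type and less RNA per cell cannot be told apart.

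No channel gene passed the test across the array. In limma, 0 of 52 channel probe sets were called at a Benjamini-Hochberg adjusted p under 0.05 (0% of 18625 probe sets called), and the smallest adjusted p among them was 1.00. With the number of the titles as a replicate block, 0 were called as well (0.0161% of all), and the smallest adjusted p was 0.206, for Scn7a. With no filter, 4 of all 181 members were higher in Math2 at an unadjusted p under 0.05 (2.21%, against 2.2% of 31042 probe sets) and 3 lower (1.66%, against 1.86%), which is close to the share over the array. Among the 52 that passed the filter these were 3 higher (1.75% of all tested) and 2 lower (1.44%), or with the block 5 higher (3.78%) and 2 lower (3.92%). Nothing is read from the counts after the filter, because the 3 higher ones, Kcnj11, Kcna2 and Kcnj3, had control means under the filter level of 6.07 and passed through their Math2 arrays. Of the 2 lower ones, Scn7a passed through its control arrays, and Hcn2 was above the level in both groups. The median standard error of a channel log2 difference was 0.385, with a range of 0.275 to 0.916.

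Across the 52 tested members the log2 difference, Math2 minus control, ran from -1.73 to 1.01 with a median of -0.15. Of these, 21 were above 0 and 31 below, that is 40.4% above 0 against 45.7% of all tested probe sets, whose median was -0.031. Over all 181 members, tested or not, the median was -0.026, with 87 above and 94 below 0 (15187 and 15855 of all 31042 probe sets). In the plot by subclass, the probe sets without overlap come from the Kv pores, the ion-activated potassium channels, the inward rectifiers, Hcn and both kinds of sodium channel subunit.

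**Figure D1:**
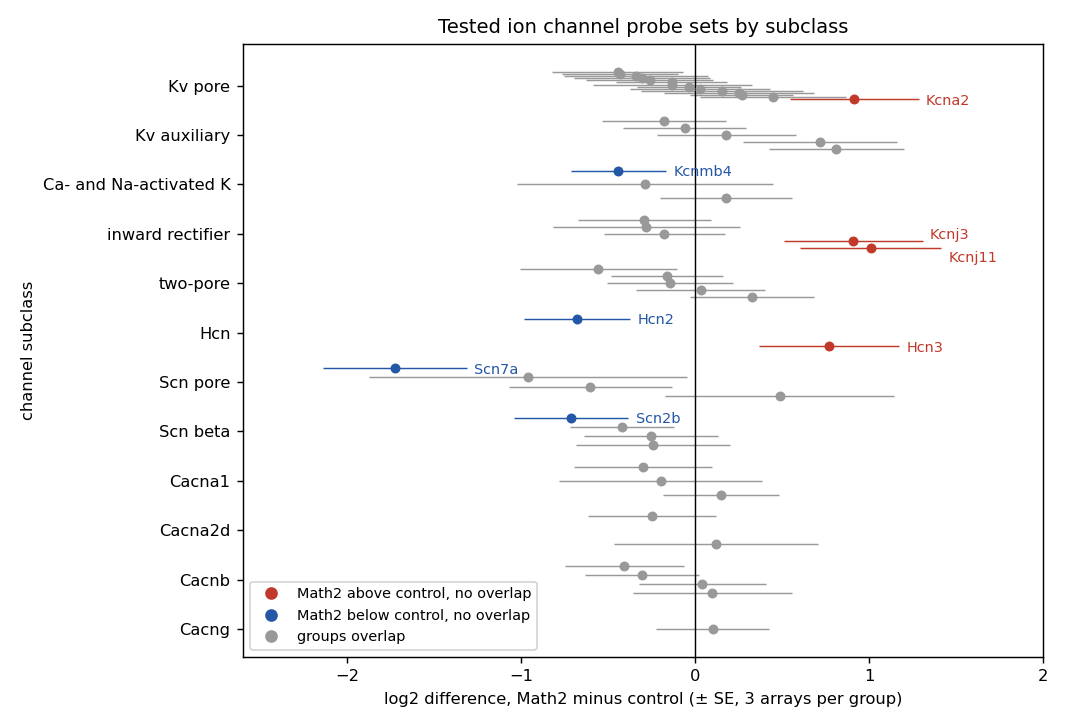
Log2 difference (Math2 minus control, horizontal axis, ± SE, 3 arrays per group) of the 52 tested ion channel probe sets, by subclass (vertical axis). Red and blue points are the 4 higher and 4 lower probe sets whose groups did not overlap, and grey points are those whose groups overlapped. Scn7a lies farthest from 0, at -1.73.

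In 8 of the 52 probe sets all 3 Math2 arrays lay on the same side of all 3 control arrays. The 4 higher were Kcnj11, Kcna2, Kcnj3 and Hcn3 (3.7% of all tested), and the 4 lower were Scn7a, Scn2b, Hcn2 and Kcnmb4 (4.3% of all tested). All 4 higher ones were under the filter level in the control group, as was Scn7a in the Math2 group, so these counts are a description of what passed and support nothing. Of the 52, 44 reached the filter level in both groups, and in these 0 were higher and 3 lower without overlap. The share without overlap among all 17791 probe sets at that level in both groups was not computed. Nothing is therefore read from these counts. Over all 181 members with no filter, 13 were higher (7.18%, against 4.78% of all probe sets) and 7 lower (3.87%, against 4.31%). With the size rule of at least 2-fold added, Kcnj11 remained on the higher side (0.37% of all tested) and Scn7a on the lower (0.328%). For each of the 8 the exact two-sided permutation p of 3 against 3 arrays was 0.1, the smallest this design allows. The counts among tested probe sets moved with the normalization and with the arrays used, and nothing is read from them either. Quantile normalization gave 5 higher and 5 lower (9.62% each, against 3.06% and 3.89% of all tested). Median centring gave 6 higher and 6 lower (11.5% each, against 3.04% and 4.45%). Without control array 3, 10 of 53 were higher without overlap (18.9%, against 6.58% of all tested). Without Math2 array 1, 2 of 54 were higher (3.7%, against 6.26%). Without Math2 array 3, 7 were higher (13%, against 10.6%) and 9 lower (16.7%, against 11.3%). Without control array 1 there were 7 lower (13.5%, against 10%), and without Math2 array 2 there were 8 lower (15.7%, against 13%). Kcnj11 and Kcnj3 no longer passed the filter without Math2 array 1, Kcnj3 also not without Math2 array 3, and Hcn3 not without Math2 array 1 or 2. Each of the 8 is given below with its family.

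**Figure D2:**
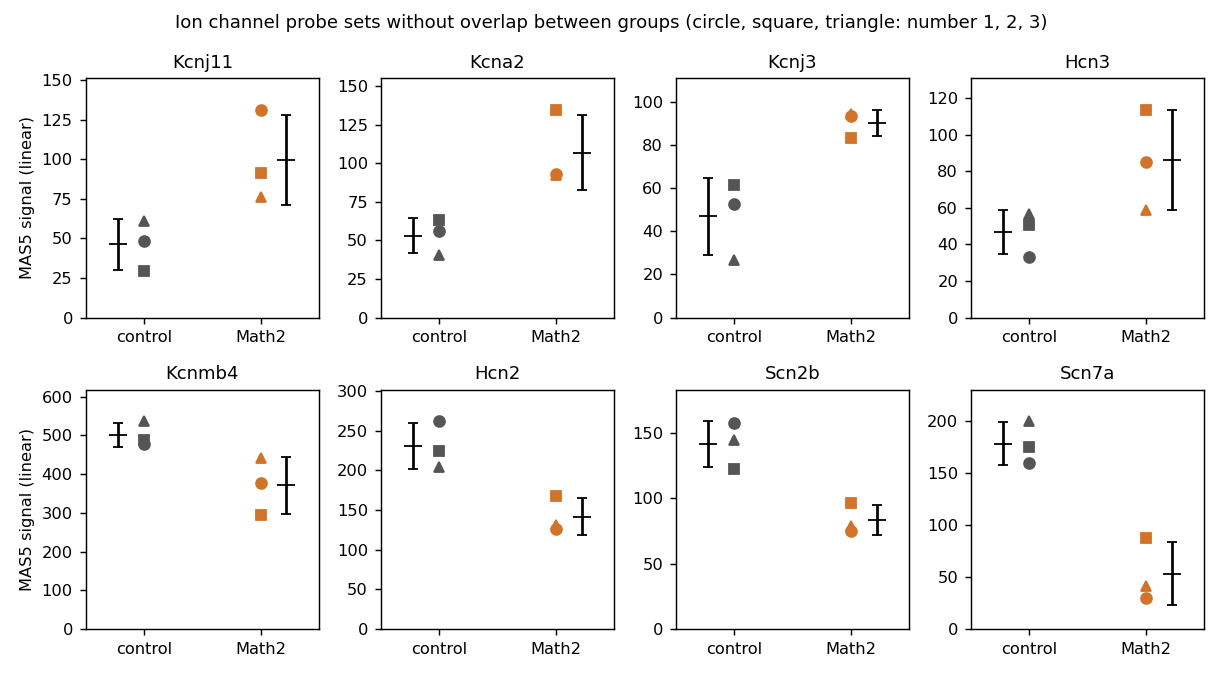
MAS5 signal (vertical axis, linear, from 0) of the 8 ion channel probe sets whose control and Math2 arrays did not overlap. Symbols are single arrays by number, and horizontal ticks with bars are the group mean ± SD (n = 3). Single values run from 295 to 538 for Kcnmb4 and from 26.8 to 262 for the other probe sets.

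Sodium channel genes had the lowest median of the classes, -0.51 over 8 tested probe sets. Of these, 7 were below 0 (87.5%, against 54.3% of all tested), or 6 of 7 genes when each was taken by its brightest probe set. The class median on single arrays was 7.01, 6.78 and 7.64 in controls 1, 2 and 3, against 6.20, 6.46 and 6.83 in Math2 samples 1, 2 and 3, on the log2(signal + 7.42) scale. The ranges overlapped, since Math2 array 3 lay just above control array 2. Over all 14 sodium channel members, which are probe sets of 12 genes, the median was -0.34, with 3 above and 11 below 0. Of all 31042 probe sets without the filter, 15187 were above and 15855 below 0. Scn7a and Scn3a reached the filter level in the control group only, so the share among tested probe sets supports nothing by itself.

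Scn7a encodes an atypical sodium channel that responds to the extracellular sodium level rather than to voltage. Its probe set, 1370973_at, measured 160, 175 and 200 in controls 1, 2 and 3, against 30.0, 87.8 and 41.7 in Math2 samples 1, 2 and 3. Every Math2 array lay below every control array, and Math2 array 2 was the nearest. The means were 178 ± 20.6 and 53.2 ± 30.6 (SD, n = 3). The log2 difference was -1.73 (SE 0.413, 95% interval -2.64 to -0.81), which is 0.302 of the control level on this scale. The difference did not pass in limma (adjusted p = 1.00, or 0.206 with the replicate block), and over all alternatives the adjusted p ran from 0.0173 to 1.00. It passed in 1 alternative, the block fit without the arrays numbered 2 (log2 difference -2.12, adjusted p = 0.0173). The Math2 mean lay below every array median, so the size of the difference is uncertain.

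The other tested sodium channel pores were wide in spread. Scn3a, a pore prominent in the developing brain, measured 155, 39.6 and 200 on the control arrays and 33.7, 10.1 and 290 on the Math2 arrays. Both the lowest and the highest of these 6 values were Math2 arrays, and the log2 difference of -0.96 had the largest SE of the tested members, 0.916. It was -0.075 without Math2 array 2, and the probe set reached the filter level in the control group only. Scn1a, a pore of fast-firing inhibitory neurons, measured 63.9, 32.8 and 186 against 64.9, 67.4 and 273, a log2 difference of 0.48 (SE 0.658). It was the only sodium channel probe set with a difference above 0 among those tested, and leaving out control array 2 gave -0.030 and leaving out Math2 array 3 gave -0.16. Scn10a, known from sensory neurons, measured 76.4, 76.8 and 210 against 67.8, 46.5 and 101, a log2 difference of -0.60 (SE 0.471). Without control array 3 that difference was -0.15.

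All 4 tested probe sets of sodium channel beta subunits, which are adhesion-type auxiliary proteins, had differences below 0. Scn2b (1396405_at) measured 158, 123 and 144 on the controls and 75.2, 96.2 and 78.6 on the Math2 arrays. The groups did not overlap, with means of 142 ± 17.7 and 83.3 ± 11.3 (SD, n = 3) and a log2 difference of -0.71 (SE 0.330, 95% interval -1.45 to 0.016). Its other probe set, not tested, measured 15.6 and 6.78. Scn3b (1383435_at) measured 1852, 1202 and 1296 on control arrays against 1477, 764 and 1055 on Math2 arrays. The groups overlapped, but each Math2 array was below the control array of the same number, and the log2 difference was -0.42 (SE 0.299, 95% interval -1.08 to 0.24; limma adjusted p = 1.00, and adjusted p = 0.663 with the block). Without Math2 array 2 it was -0.19. The other Scn3b probe set, 1370850_at, had a log2 difference of -0.24 (SE 0.442) and was also lower in all 3 numbered pairs. Leaving out control array 2 gave 0.064 there, as did leaving out Math2 array 1. Scn4b had -0.25 (SE 0.385) from means of 74.6 and 60.6.

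The sodium channel pores that were not tested had group means on either side. Scn2a measured 54.8 and 45.6 as group means, Scn4a 20.3 and 8.87, Scn8a 10.8 and 20.5, Scn9a 26.2 and 26.3, and Scn11a 38.3 and 37.3, with overlap in each. All of these lie below every array median.

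**Figure D3:**
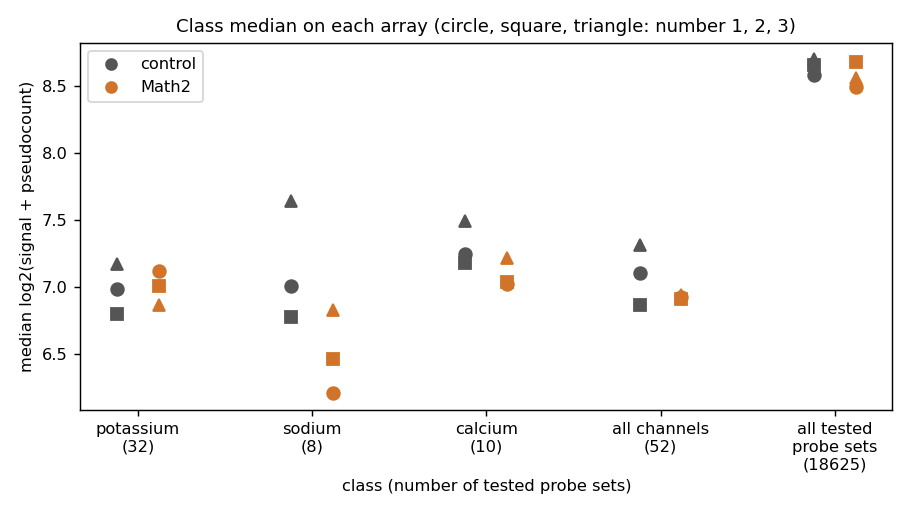
Median log2(signal + 7.42) of the tested probe sets of each class on each array (vertical axis), with the number of probe sets under each class. Grey symbols are control and orange symbols Math2 arrays, by number. Sodium channel medians run from 6.78 to 7.64 on control and from 6.20 to 6.83 on Math2 arrays, while those of potassium channels run from 6.80 to 7.17 and from 6.86 to 7.12.

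The plot of class medians by array shows the groups closer together for potassium and calcium channels than for sodium channels. Calcium medians were 7.25, 7.18 and 7.50 in controls 1, 2 and 3, against 7.02, 7.03 and 7.22 in Math2 samples 1, 2 and 3. Each Math2 array was thus below the control array of its number, but the ranges overlapped. Potassium channel genes had a median log2 difference of -0.097 over 32 tested probe sets, 14 above and 18 below 0. Calcium channel genes had -0.080 over 10, 5 above and 5 below. Over all members, tested or not, these medians were 0.030 and -0.0082. Leaving out control array 1 gave a calcium median of -0.23, and leaving out control array 2 gave -0.22.

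Of the 3 Hcn genes, which encode cation channels opened by hyperpolarization and modulated by cyclic nucleotides, 2 were tested, and they lay on opposite sides. Hcn2 (1370966_at) measured 262, 225 and 205 in the control group and 125, 168 and 131 on Math2 arrays. All Math2 values were below all control values, with means of 231 ± 29.2 and 142 ± 23.3 (SD, n = 3) and a log2 difference of -0.68 (SE 0.307, 95% interval -1.36 to -0.00068). Hcn3 (1369416_at) measured 33.2, 50.7 and 56.8 on the controls against 85.4, 114 and 59.1 on Math2 arrays. Its groups did not overlap either, but control array 3 and Math2 array 3 were close together. The log2 difference was 0.77 (SE 0.404, 95% interval -0.13 to 1.66), from means below every array median. Whether the differences of Hcn2 and Hcn3 are unlike each other was not tested. Hcn4 was not tested, with means of 7.41 and 5.15.

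Pores of voltage-gated potassium channels made up the largest subclass, with 14 of 49 probe sets tested, 6 above and 8 below 0 and a median of -0.084. Kcna2, a low-threshold potassium channel of axons, was the only probe set without overlap among the 14 tested. Its probe set 1379092_at measured 56.1, 62.9 and 40.4 on the controls and 93.3, 135 and 92.3 on the Math2 arrays. The lowest Math2 array thus stood above the highest control array, and the log2 difference was 0.91 (SE 0.371, 95% interval 0.093 to 1.73; adjusted p = 1.00 in limma and 0.590 with the block). The control mean of 53.1 lay below every array median. Another Kcna2 probe set, not tested, measured 12.1 and 32.7 with overlap. Of the 35 pore probe sets that were not tested, 6 had groups without overlap. The 4 higher were of Kcna6, Kcnb2, Kcnh5 and Kcnq1 (6.4% of all probe sets not tested were higher). The 2 lower were of Kcng2 and Kcnq5 (4.32% of all probe sets not tested were lower). The other Kcna6 probe sets, 1388263_at (not tested) and 1393124_at (tested), overlapped, with log2 differences of -0.28 and -0.26.

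The fast-repolarizing channels Kcnc1 and Kcnc4 had lower means in Math2, with overlap. Kcnc1 measured 202, 203 and 208 on control arrays, a narrow range, and 112, 213 and 140 on Math2 arrays, a log2 difference of -0.43 (SE 0.333). Kcnc4 measured 93.1, 98.2 and 97.4 against 56.6, 53.8 and 105, a difference of -0.45 (SE 0.378). In each case 1 Math2 array lay above all control arrays. The differences were -0.24 for Kcnc1 without Math2 array 1 and -0.29 for Kcnc4 without Math2 array 2, and a Kcnc4 probe set that was not tested had means of 61.4 and 61.7.

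The Kcnd genes encode the pores of the rapidly inactivating A-type current of dendrites. Kcnd3 had a pair of tested probe sets with like signals, and another that was not tested, with means of 62.7 and 51.99. The first, 1369144_a_at, measured 377, 414 and 591 on the controls and 541, 299 and 428 on the Math2 arrays, with a log2 difference of -0.14 (SE 0.318). The second, 1378111_at, measured 378, 460 and 618 against 194, 417 and 640, with -0.34 (SE 0.415). On the control arrays the pair gave close values, while the Math2 arrays differed between them. Math2 array 1 was lower with the second probe set, and Math2 arrays 2 and 3 were higher with it. Kcnd2 had a log2 difference of 0.25 (SE 0.434) and Kcnd1 of -0.31 (SE 0.391). The remaining tested pores were Kcna6, Kcnh2, Kcnh3, Kcnq3, Kcnq5, Kcns3 and Kcnv1, with differences between -0.26 and 0.45, all with overlap.

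Auxiliary subunits of these channels had a median of 0.18 over 5 tested probe sets, 3 above and 2 below 0. Kcnip1 and Kcnip2 encode calcium-binding KChIP proteins, which attach to Kcnd pores and raise the current they carry. Kcnip1 (1394097_at) measured 143, 109 and 167 on the controls and 290, 143 and 358 on the Math2 arrays. Math2 array 2 fell inside the control range, but each Math2 array was above the control array of its number. The log2 difference was 0.81 (SE 0.390, 95% interval -0.052 to 1.67), with an unadjusted limma p of 0.0627 and, with the block, of 0.0172 (adjusted p = 0.524). Kcnip2 (1373987_at) measured 87.6, 68.5 and 168 against 152, 114 and 284. It too was higher in 3 of 3 pairs with overlap between the groups, a log2 difference of 0.72 (SE 0.444) and an unadjusted limma p of 0.136, or 0.0389 with the block (adjusted p = 0.613). It was 0.36 without Math2 array 3. The probe sets of these genes that were not tested had log2 differences of -0.52 and 0.52 for Kcnip1 and of 0.47 and 0.40 for Kcnip2, from means of at most 22.6. Another KChIP gene, Kcnip3, measured 142, 99.2 and 87.9 against 86.9, 98.8 and 126, a difference of -0.062 (SE 0.353). Across all 52 members, 8 were higher in all 3 pairs (15.4%, against 13.1% of all tested) and 9 lower (17.3%, against 15.2%). The beta subunit gene Kcnab1 had a difference of 0.18 (SE 0.399), which was -0.17 without control array 1, and Kcne4 of -0.18 (SE 0.357).

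Inward rectifiers, which hold the resting potential near the potassium equilibrium, had 5 of 26 probe sets tested, 2 above and 3 below 0. Both of those above 0 had groups without overlap. Kcnj11, the pore of ATP-sensitive potassium channels, measured 48.1, 29.4 and 61.2 on the controls and 131, 91.3 and 76.0 on the Math2 arrays with probe set 1369782_a_at. The log2 difference was 1.01 (SE 0.407, 95% interval 0.11 to 1.91), or 2.01-fold on this scale, with an adjusted limma p of 1.00 (0.590 with the block). Its other tested probe set, 1391007_s_at, did not repeat this. It measured 120, 61.6 and 78.1 against 132, 25.0 and 85.5, a log2 difference of -0.28 (SE 0.539). The remaining probe set, not tested, measured 37.8 and 30.7 as group means, so the difference of Kcnj11 rests on 1 of 3 probe sets.

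Kcnj3, a pore of the channels that G proteins open downstream of inhibitory receptors, measured 52.5, 61.3 and 26.8 on the controls and 93.5, 83.4 and 94.1 on the Math2 arrays (1369741_at). The Math2 values were tight and above all controls, with means of 46.9 ± 17.9 and 90.4 ± 6.01 (SD, n = 3). The log2 difference was 0.91 (SE 0.400, 95% interval 0.024 to 1.79; limma adjusted p = 1.00, and adjusted p = 0.638 with the block). Of its probe sets that were not tested, 1388292_at measured 12.9, 8.73 and 7.84 against 109, 23.8 and 16.9, also without overlap, and 1369740_at had means of 30.5 and 31.9. Means of both Kcnj11 and Kcnj3 lay below every array median in both groups, so the sizes are uncertain. Kcnj14 (-0.18, SE 0.347) and Kcnj15 (-0.29, SE 0.385) overlapped.

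Among channels opened by calcium or sodium ions, Kcnmb4 (1387318_at), the neuronal beta subunit of the large-conductance calcium-activated channel, had groups without overlap. It measured 478, 488 and 538 on the controls and 377, 295 and 442 on the Math2 arrays, with means of 501 ± 32.01 and 371 ± 73.8 (SD, n = 3). The log2 difference was -0.44 (SE 0.275, 95% interval -1.05 to 0.17; limma adjusted p = 1.00, and adjusted p = 0.709 with the block). Its pore partner Kcnma1 measured 73.9, 52.4 and 199 against 27.97, 47.4 and 277. The Math2 arrays held both extremes there, and the log2 difference of -0.29 had an SE of 0.735. Kcnma1 probe sets that were not tested had log2 differences of -0.88 and 0.52. Without Math2 array 2, the difference of Kcnmb4 was -0.29. Kcnt1, a sodium-activated channel, had a difference of 0.18 (SE 0.377).

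Tandem-pore leak channels of the Kcnk family set the background conductance of cells. Of 16 probe sets 5 were tested, 2 above and 3 below 0, all with overlap. Kcnk2, opened by stretch and lipids, measured 235, 212 and 336 on the controls and 245, 78.0 and 258 on the Math2 arrays. Math2 array 2 alone lay below the controls, and the log2 difference was -0.56 (SE 0.451), or -0.025 without that array. Another Kcnk2 probe set, not tested, had -0.48. Kcnk5 had 0.32 (SE 0.356) and was higher in 3 of 3 pairs. The tested probe sets of Kcnk10 had differences of -0.16 (SE 0.320) and 0.031 (SE 0.370).

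Calcium channel genes showed no probe set without overlap among the 10 tested. Cacna1c, an L-type pore that links activity to gene expression, measured 399, 324 and 427 on the controls and 425, 281 and 631 on the Math2 arrays, a log2 difference of 0.15 (SE 0.336, 95% interval -0.60 to 0.89), and -0.14 without Math2 array 3. Cacna1b, the N-type pore of synaptic terminals, measured 57.6, 66.0 and 98.6 against 31.5, 38.0 and 182. A single Math2 array was high there, and the difference of -0.20 (SE 0.582) became 0.22 without Math2 array 1. Probe sets of Cacna1b and Cacna1c that were not tested had -0.49 and -0.24. Cacna1h, a low-threshold pore, had -0.30 (SE 0.396) with the tested probe set and means of 69.2 and 40.6 with the other.

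For all tested auxiliary calcium channel subunits the groups overlapped and the 95% interval of the difference included 0. The alpha2-delta genes, whose products bring pores to the surface, had differences of -0.25 (SE 0.368) for Cacna2d1 and 0.12 (SE 0.586) for Cacna2d3. Cacnb2, a cytoplasmic beta subunit, had -0.41 (SE 0.342) and 0.098 (SE 0.459) with its 2 tested probe sets, Cacnb1 had -0.31 (SE 0.327) and Cacnb3 0.041 (SE 0.363). Cacnb1 was lower in 3 of 3 pairs, at 150, 160 and 192 against 148, 156 and 102. Cacng2 encodes stargazin, which carries AMPA receptors to synapses, and was the only tested Cacng gene. It measured 162, 155 and 156 against 226, 137 and 157, a difference of 0.099 (SE 0.322).

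The remaining probe sets of named genes, not tested and all with overlap, had log2 differences of -0.13 for Cacnb1, -0.29 for Cacnb2, 0.0012 for Cacng2, 0.13 for Kcnab1, -0.15 and 0.23 for Kcnt1, and 0.15 for Kcnj15. Of the 47 genes tested, 5 had several tested probe sets, and in 3 of these (Cacnb2, Kcnj11 and Kcnk10) the signs of the differences were opposite. In Kcnd3 and Scn3b they were the same. Quantile normalization moved the log2 difference of a tested member by at most 0.067. Leaving out 1 array brought the log2 difference closer to 0 by over 1.5 times, or past 0, in 31 of the 39 probe sets named by rule, and turned the sign in 16. Those that kept more of their size were Scn7a, Scn2b, Hcn2, Hcn3, Kcna2, Kcnj3, Kcnj11 (1369782_a_at) and Kcnip1, over the left-out arrays in which they were tested.

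Among channel probe sets that were highest on the same number in both groups, number 3 was the most frequent. In 16 of 52 channel probe sets the array numbered 3 was the highest of its group in both groups (30.8%, against 14.8% of all tested). The shares for number 1 and number 2 were 11.5% and 5.77%, against 14.2% and 20.2%. This grouping was noted after the values were seen. The 16 were from every class but Hcn: Scn1a, Scn3a, Scn10a, Cacna1b, Cacna1c, Cacna2d1, Cacna2d3, Cacnb3, Kcnd1, Kcnd2, Kcnd3 (1378111_at), Kcnip1, Kcnip2, Kcnk2, Kcnma1 and Kcnmb4. For Kcnd2 the signals were 164, 114 and 342 on the controls and 164, 206 and 327 on the Math2 arrays. For Cacna2d3 they were 141, 73.0 and 316 against 118, 97.8 and 368. The summed signals of cell markers were also highest on number 3 in both groups for 12 neuron markers (21780, 15850 and 28290, then 18980, 16300 and 36590), for 6 excitatory neuron markers (800, 589 and 1727, then 853, 751 and 2628) and for 5 inhibitory neuron markers (3795, 1568 and 4219, then 2330, 1401 and 5001). The same held for the sums of 6 oligodendrocyte lineage markers (9300, 6295 and 10980, then 6886, 9944 and 10070) and 6 markers of fibroblasts and meninges (7547, 6030 and 9480, then 6998, 5594 and 7486). Summed astrocyte markers were lowest there (17060, 17790 and 13910, then 19290, 22510 and 12000). Microglia sums were highest there on control arrays only (165.9, 153.5 and 203.7, then 182.6, 143.7 and 180). Endothelial and mural sums were highest there in neither group (219.8, 314.6 and 229.3, then 351.6, 293.7 and 230.6). The excitatory neuron sum includes Neurod6, the transfected gene, at 386, 207 and 973 on controls, then 312, 167 and 1546 on Math2 arrays. Single markers did not all follow their sum. The excitatory neuron marker Emx1 measured 108, 170 and 145 on controls, then 193, 224 and 114 on Math2 arrays. On Math2 arrays 1, 2 and 3, Olig1 measured 5683, 9061 and 7632, and Col1a2 measured 2925, 1500 and 2304. On control arrays 1, 2 and 3, Map2 measured 3557, 1507 and 3271, and the astrocyte marker Aldoc measured 413, 477 and 596. The part of these markers in the channel values was not tested.

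**Figure D4:**
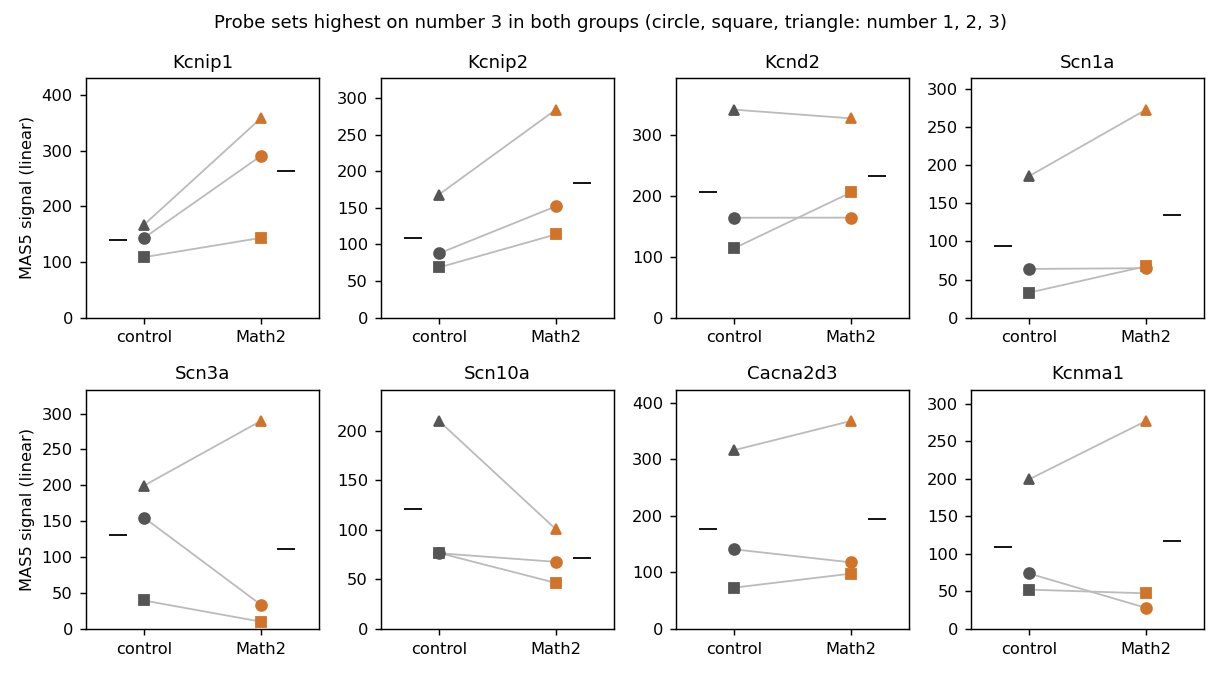
MAS5 signal (vertical axis, linear, from 0) of 8 of the 16 ion channel probe sets that were highest on the arrays numbered 3 in both groups. Grey and orange symbols are control and Math2 arrays, lines join arrays of like number and horizontal ticks are group means; for Scn3a the number 3 arrays read 200 and 290 and the other arrays 10.1 to 155.

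Among those plotted, both arrays numbered 3 lay above all other arrays for Kcnip2, Kcnd2, Scn1a, Scn3a, Scn10a, Cacna2d3 and Kcnma1, but not for Kcnip1. For Kcnip1, Kcnip2 and Scn1a the lines of all 3 numbers slope upward, and for Scn10a all slope downward.

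Partners and regulators of the channels outside the naming rule, such as the ankyrin scaffolds, the fibroblast growth factor homologous factors that bind sodium channels, and calmodulin, formed a list of 43 genes, of which 40 were on the array and 22 were tested. Of these 10 were above and 12 below 0 with a median of -0.061, and 0 passed in limma with or without the block. At an unadjusted p under 0.05 there were 0 (1.75% of all tested were higher and 1.44% lower), or 1 lower with the block (3.92% of all tested). That was Akap6, an anchoring protein of protein kinase A, at 166, 121 and 116 on the controls and 122, 62.6 and 53.4 on the Math2 arrays (log2 difference -0.77). The anchor proteins Dlg1 and Dlg4, which cluster potassium channels and receptors, had differences of -0.39 and -0.56. These were -0.20 without control array 1 for Dlg1 and -0.20 without Math2 array 1 for Dlg4. The calmodulin gene Calm2 measured 9351, 9356 and 10675 against 13877, 10905 and 11831 without overlap (3.7% of all tested were higher without overlap), a difference of 0.31. That difference was 0.039 under quantile normalization, and 186 of the 187 brightest probe sets on the array were higher in Math2, with a median of 0.43. Rrad, a small GTPase that inhibits calcium channels, had 0.44, or 0.10 without Math2 array 3. Nedd4l, a ubiquitin ligase that removes sodium channels from the surface, had 0.22, or 0.11 without Math2 array 2.

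Because Math2 belongs to a family that binds E-boxes, the sequences before the start sites of members were searched for them. RefSeq promoters of the GRCr8 assembly were matched by gene number for 79 of the 114 genes, and the 250 bases before each start were read. The general E-box, CANNTG, reads the same on both strands and was present in 53 of 88 promoters of members (60.2%, against 65.5% of 33469 promoters in the table). The form CAGATG, or CATCTG on the other strand, which is a subset of the general E-box and is known from NeuroD-family binding, was present in 4 (4.55%, against 14% of all). These were promoters of Kcnip1, Kcnab3, Kcnc2 and Scn9a, and only Kcnip1 of them had a tested probe set. A match is a description of the letters and no evidence of binding.

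The promoters shown are those of the members with an unadjusted limma p under 0.05 that the table holds (Scn7a, Kcna2 and Hcn2; Kcnj3 and Kcnj11 are named only), and that of Kcnip1 with the CATCTG match, chosen after it was seen. Each is the 250 bases before the start, written along the strand of the gene, with every CANNTG in capitals.
Scn7a (GRCr8 chr3:71846285-71846534, minus strand): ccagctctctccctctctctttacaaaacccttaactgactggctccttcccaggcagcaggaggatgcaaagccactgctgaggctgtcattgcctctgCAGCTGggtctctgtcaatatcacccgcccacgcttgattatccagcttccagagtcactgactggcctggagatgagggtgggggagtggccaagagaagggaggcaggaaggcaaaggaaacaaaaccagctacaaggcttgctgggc
Kcna2 (GRCr8 chr2:197393280-197393529, plus strand): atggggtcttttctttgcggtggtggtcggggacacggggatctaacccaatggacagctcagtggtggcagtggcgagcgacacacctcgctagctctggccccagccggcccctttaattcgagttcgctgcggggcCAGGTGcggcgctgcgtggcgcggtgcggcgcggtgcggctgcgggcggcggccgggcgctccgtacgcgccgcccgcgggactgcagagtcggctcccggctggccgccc
Hcn2 (GRCr8 chr7:10639458-10639707, minus strand): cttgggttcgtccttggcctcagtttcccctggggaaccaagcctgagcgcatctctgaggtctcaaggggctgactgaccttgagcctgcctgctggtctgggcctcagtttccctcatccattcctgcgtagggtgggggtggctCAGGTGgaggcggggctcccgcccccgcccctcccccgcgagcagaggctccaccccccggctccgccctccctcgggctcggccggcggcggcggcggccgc
Kcnip1 (GRCr8 chr10:18940810-18941059, minus strand): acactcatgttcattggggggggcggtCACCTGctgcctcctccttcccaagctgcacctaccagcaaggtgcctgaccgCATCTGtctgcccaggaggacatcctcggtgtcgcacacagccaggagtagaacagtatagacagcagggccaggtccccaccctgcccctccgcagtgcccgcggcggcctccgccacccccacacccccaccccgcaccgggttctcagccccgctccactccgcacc

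Scn7a, Kcna2 and Hcn2 each hold 1 general E-box and no CAGATG or CATCTG in this window. The first base of that E-box lies 150 bases before the start in Scn7a, 111 in Kcna2 and 103 in Hcn2, and the latter pair share the letters CAGGTG. The Kcnip1 promoter shown holds 2, at 223 and 170 bases before the start, and another Kcnip1 promoter in the table holds 1 general E-box. Bases G and C made up 56.0% of the Scn7a window, 72.4% of that of Kcna2, 71.6% of that of Hcn2 and 67.6% of that of Kcnip1. Of the other members without overlap that the table holds, Scn2b had 3 general E-boxes and Kcnmb4 had 0.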

How the data were processed

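Gene expression was measured on 6 arrays, 3 control and 3 Math2, grouped by title. Values are linear intensities, deposited as 1 column per array and made by the authors with MAS5, per the submitters' processing notes, which name no version. With the top and bottom 2% trimmed, the mean was equal on all arrays, so the values were used as scaled. This scaling did not make the groups equal at every signal level. Of the 187 brightest tested probe sets, 186 were higher in Math2, with a median log2 difference of 0.43.

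Intensities were transformed to log2(signal + 7.42), the pseudocount being the 10th percentile of positive values, so differences of dim probe sets are understated. Of 31099 probe sets, 57 control probe sets were left out, and 18625 at or above the 40th percentile (log2 of 6.07) were tested with limma 3.58.1 in R 4.3.3 (eBayes with an intensity trend, two-sided, Benjamini-Hochberg over all tested, threshold 0.05). The fit was tested on simulated data with 200 of 18625 probe sets changed. It recovered 5% of the 2-fold and 88% of the 4-fold changes, with 5 false calls. A lack of calls therefore says little about differences of 2-fold or less. Means of replicates are given with their SD. Platform symbols of all 181 members matched RefSeq by gene number, and 0 changed. The number of arrays limits the precision.

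Arrays sharing number 1, 2 and 3 deviated together from their group means (r = 0.326, 0.476 and 0.372 across probe sets, limit 0.1), so the numbers were taken as pairs. This comes from the data, since the labels do not explain the numbers. Control array 1 and Math2 array 3 also exceeded the limit (r = 0.104). Across channel members alone, like numbers gave r = 0.222, 0.589 and 0.668. There Math2 array 1 had a higher r with control array 2 (0.313) than with control array 1. The planned fit has no block, and the fit with the replicate block is given beside it.

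Named were all tested Hcn, Scn and Cacna1 probe sets, and in each other subclass the 3 with the smallest p and the 2 with the highest mean, with the other probe sets of those genes, and 6 partner genes by p. Others were named after their values were seen. Alternatives were the pseudocount, the filter, quantile and median normalization, no trend, the block and leaving out arrays. Members and lists were chosen with earlier results of these data known.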

Additional observations from a re-analysis of the deposited data

How the results depend on the processing

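Of 52 tested channel probe sets, limma called 0 in every alternative except 1, the replicate block fit without the arrays numbered 2, which called Scn7a lower. Over all tested probe sets, 0 were called in every fit without the block; with the replicate block 3 were higher, with the block and quantile normalization 4 were higher and 1 lower, and with arrays left out the counts ran from 0 to 48 higher and from 0 to 63 lower, the highest being the block fit without the arrays numbered 2. For channel calls lower that range was 0 to 1. Channel probe sets without overlap numbered 13 higher and 7 lower without the filter, where all 181 are counted (4.78% and 4.31% of all probe sets), and 0 and 1 with the stricter filter, which left 10 (3.52% and 4.4%). They numbered 5 and 5 with quantile normalization (3.06% and 3.89% of all tested) and 6 and 6 with median centring (3.04% and 4.45%). With arrays left out they ran from 2 to 11 higher and from 4 to 11 lower, while the shares over all tested probe sets ran from 6.26% to 14.4% and from 7.1% to 17.8%. The Hcn median was -0.24 without the filter and -0.82 to 0.21 with arrays left out, and the calcium median was 0.15 with the stricter filter and -0.23 to 0.016 with arrays left out. The sodium median stayed below 0 in all alternatives run, from -0.68 to -0.34, and the potassium median ran from -0.15 to 0.055. With arrays left out, log2 differences changed sign for Cacna1b (-0.35 to 0.22), Cacna1c (-0.14 to 0.44), Cacna2d3 (-0.45 to 0.64), Cacnb2 1374717_at (-0.21 to 0.50), Cacng2 (-0.10 to 0.25), Kcnab1 (-0.26 to 0.56), Kcnd3 1369144_a_at (-0.46 to 0.088) and 1378111_at (-0.72 to 0.12), Kcne4 (-0.44 to 0.078), Kcnj11 1391007_s_at (-0.73 to 0.32), Kcnj14 (-0.38 to 0.0098), Kcnk10 1369232_at (-0.41 to 0.074), Kcnma1 (-1.19 to 0.32), Kcnt1 (-0.0095 to 0.48), Scn1a (-0.16 to 1.10) and Scn3b 1370850_at (-0.60 to 0.064). The cause was not tested. The 8 probe sets without overlap kept their sign in all alternatives in which they were tested; the stricter filter removed all but Kcnmb4, and leaving out arrays removed Kcnj11, Kcnj3 and Hcn3 in some. Signals near or below the array medians limit most channel values, and detection is unknown.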

Other observations

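Among the 129 channel probe sets too dim to be tested, 9 lay higher and 3 lower in Math2 without overlap (6.98% and 2.33%, against 6.4% and 4.32% of all 12417 probe sets that were not tested). The higher ones included Kcnk1, a tandem-pore leak channel, at 6.35, 24.5 and 21.3 on control arrays and 38.8, 69.5 and 44.3 on Math2 arrays. They also included Kcnj6, a partner pore of Kcnj3 in channels opened by G proteins, at 2.13, 15.5 and 17.5 against 32.8, 34.4 and 31.6 with 1370598_a_at, and Cacna1i, a low-threshold calcium channel, at 37.0, 40.7 and 18.9 against 61.0, 42.7 and 46.3. The other 3 Kcnj6 probe sets overlapped, with log2 differences of -0.033, -0.61 and 0.039, so 1 of 4 probe sets shows this. The lower ones were Kcng2 (1377477_at), a silent modifier subunit, at 51.0, 33.6 and 27.7 against 10.3, 17.4 and 23.0, Kcnq5 at 62.4, 40.2 and 40.6 against 13.3, 9.34 and 32.9, and Kcnj13 at 60.04, 49.9 and 70.3 against 46.7, 32.7 and 9.84. The other Kcng2 probe sets lay the opposite way with overlap: 1374814_at at 6.24, 27.5 and 56.9 against 36.1, 94.2 and 87.2 (log2 difference 1.26), and 1390473_at with a difference of 0.39. For Kcnq5, the tested probe set had -0.037 and the remaining one 1.03. All group means of the probe sets named here that were not tested lie below every array median, whether they are above background is unknown, and the examples were chosen after their values were seen.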
